A study of Mus musculus with 8 samples.

Results

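Enzymes and carriers of the urea cycle and of amino acid breakdown were compared between Hmgb1 deleted and floxed control livers of the mouse. The 44 genes were chosen by name, by pathway, and each was read on the brightest probe set that GEO's annotation assigns to that gene alone, which gave values for 39 of the 44 among 19938 genes tested. Ass1 and Ahcy share their probe sets with other symbols and Gls2, Sds and Sdsl had no probe set named for them, so these 5 were not analysed here. Serine and threonine breakdown, represented by Sds and Sdsl, therefore has no value. Mut was found under its newer symbol Mmut.

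Liver RNA of male mice 8 weeks of age was hybridised to 8 Affymetrix arrays of 1 colour. In the deleted group (n = 4) the floxed Hmgb1 alleles, which encode a chromatin protein, had been recombined by Albumin-Cre, an enzyme driven by a promoter of hepatocytes, so that Hmgb1 of other liver cells is not the target. The floxed controls (n = 4) were littermates with floxed Hmgb1 alleles whose titles name no Cre, so an effect of Cre and one of the deletion cannot be told apart. The labels conflict on strain (C57Bl/6 in the protocol, Balb/c in the characteristics) and on tissue (whole liver or liver stellate cells). Albumin, the main secreted product of hepatocytes, had log2 intensities of 13.26 to 14.03 in the deleted group and 13.95 to 14.01 in the controls, close to each array's highest value. The labels do not tie arrays to separate animals, and p-values then cover only the spread among these 8 arrays, which may be technical. In bulk tissue, fewer cells of a type and less RNA per cell cannot be told apart.

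Amino acids that are not used for protein lose their nitrogen in the liver, and the ammonia is made into urea by a cycle shared between the mitochondria and the cytosol of hepatocytes. The cycle and the entry enzymes of several breakdown pathways are most active in periportal hepatocytes, which meet portal blood first, whereas ammonia that escapes is caught as glutamine by pericentral hepatocytes. Many of these genes are raised by glucagon, through cAMP, and by glucocorticoids, with C/EBP factors acting on their promoters. The carbon skeletons that remain feed glucose and ketone synthesis or the citric acid cycle, and inherited loss of single enzymes causes hyperammonaemia, tyrosinaemia, maple syrup urine disease or propionic acidaemia in humans.

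None of the 39 genes passed the threshold of an adjusted p of 0.05 (0 of 39, limma with Benjamini-Hochberg adjustment over all genes), where 0.692% of all genes tested did, 0.296% higher and 0.396% lower in deleted livers. The lowest adjusted p was 0.126, for Gpt. Unadjusted p-values were under 0.05 for 6 of the 39 (15.4%), Gpt and Ftcd above 0 and Otc, Arg1, Pccb and Cth below 0, against 9.46% of all genes tested (4.93% above and 4.53% below 0). Log2 fold changes, deleted minus control, ran from −0.22 for Pccb to 0.24 for Gpt, with 27 below 0, 11 above 0 and 1 equal. Those below 0 made up 69.2% of the 39, against 49.8% of all genes tested, and those above 0 28.2%, against 49%. The 95% intervals of all 39 lay within a 1.5-fold change in either direction, and those of 29 within 0.32 on the log2 scale. The median log2 fold change was −0.045, beside 0 over all genes tested. Single arrays moved that median, to −0.068 without deleted 2, −0.073 without deleted 3 and −0.011 without deleted 4. With deposited values quantile normalized again it was 0.0023, with 18 of the 39 below 0 and 21 above 0. Single arrays also moved the count over all genes, from 138 to 67, 53 and 37 without deleted 2, 3 and 4, and to 321, 82, 71 and 42 without controls 1, 2, 3 and 4, while the count for the 39 stayed at 0 in each. Of the 38 genes with a value other than 0, leaving out 1 array moved 30 by over 1.5 times or across 0, and did not so move Otc, Asl, Arg1, Gpt, Ftcd, Mccc1, Pccb and Cth.

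**Figure D1:**
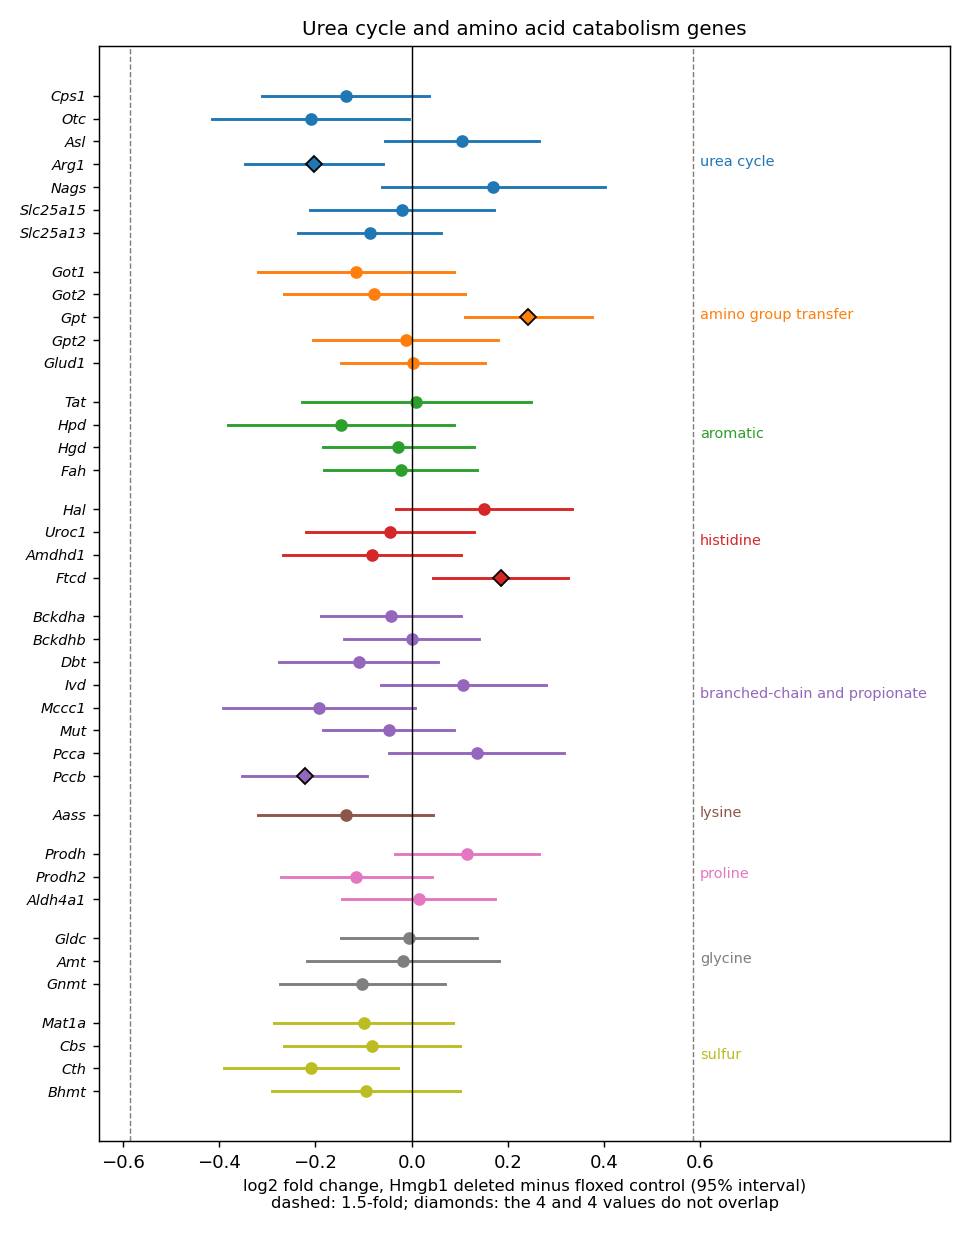
Log2 fold change (x axis, deleted minus floxed control) with its 95% interval for each of the 39 measured genes (y axis), coloured by pathway. All intervals lie between the dashed lines at 1.5-fold, and black-edged diamonds mark Arg1, Gpt, Ftcd and Pccb, whose 4 deleted and 4 control values do not overlap.

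For 4 of the 39 genes (10.3%) the 4 deleted values all lay on one side of the 4 controls, against 5.57% of all genes tested. With dim genes left out, all 39 remained, and the share was 8.09% of the 11631 genes kept. Gpt and Ftcd lay above their controls (3.28% of all genes did) and Arg1 and Pccb below theirs (2.3% did). After quantile normalization again the count was 9 (23.1%) and still held these 4, where 8.5% of all genes had groups without overlap. With arrays centred on their medians it was 4, with Prodh in the place of Arg1. Leaving out an array makes separation easier for any gene. The count was 11 (28.2%) without deleted 2, against 8.04% of all genes, and 8 (20.5%) without control 1, against 13.3%. Without deleted 4 it was 6 (15.4%, against 7.62%) and without control 2 it was 5 (12.8%, against 7.47%). It stayed at 4 (10.3%) without deleted 3, control 3 or control 4, against 7.96%, 7.5% and 7%. It also stayed at 4 without deleted 1, where the share of all genes was slightly higher than that of the 39 (2096 of 19938).

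The rule for promoters took only Gpt, the gene of largest change among these 4, and sequence was then looked up for all 4. RefSeq promoters of the table's build GRCm38.p6, 300 bases from upstream of the start site to just inside the gene, matched 33 of the 44 genes. Arg1 and Gpt had no promoter listed there, so they are named only, and those of Ftcd and Pccb are shown instead. The promoter of Ftcd is at chr10:76575398-76575697, plus strand, and that of Pccb at chr9:101034835-101035134, minus strand, both given 5′ to 3′ along the gene, with capitals marking TGACG, the core of the cAMP response element.

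Ftcd: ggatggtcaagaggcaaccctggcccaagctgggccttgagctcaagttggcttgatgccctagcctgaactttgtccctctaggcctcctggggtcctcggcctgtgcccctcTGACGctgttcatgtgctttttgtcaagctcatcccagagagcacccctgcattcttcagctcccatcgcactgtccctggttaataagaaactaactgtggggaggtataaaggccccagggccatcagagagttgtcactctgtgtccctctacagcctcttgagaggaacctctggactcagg

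Pccb: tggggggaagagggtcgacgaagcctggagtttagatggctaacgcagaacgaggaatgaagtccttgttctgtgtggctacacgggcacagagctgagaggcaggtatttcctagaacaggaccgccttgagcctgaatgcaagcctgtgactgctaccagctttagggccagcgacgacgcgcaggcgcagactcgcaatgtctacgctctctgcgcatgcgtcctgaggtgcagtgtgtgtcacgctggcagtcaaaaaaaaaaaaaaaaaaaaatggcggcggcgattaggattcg

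The core TGACG, read on both strands, stood once in the Ftcd window and not in that of Pccb. It was present in 5 of the 36 promoters of the matched genes (13.9%), those of Aass, Ftcd, Nags, Pcca and Slc25a13, against 20.8% of all 32851 promoters. The palindrome of C/EBP factors, TTGCGCAA, was in 0 of the 36 and in 0.183% of all promoters. Its looser form TTGCNNAA, on both strands and including the palindrome, was in 4 of the 36 (11.1%), those of Aass, Hal, Hgd and Prodh2, against 10.8% of all.

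In the urea cycle 0 of 7 measured genes passed, with 2 log2 fold changes above 0, 5 below 0 and a median of −0.088. Arg1, the arginase that releases urea and had the smallest p of the cycle, had log2 intensities of 11.90, 11.97, 11.96 and 11.75 in the deleted group and 12.08, 12.06, 12.14 and 12.11 in the controls. All 4 deleted values were lower, by a margin of 0.09 between the highest deleted and the lowest control array, with deleted 4 lowest of all. Its log2 fold change was −0.20 (SE 0.065, 95% interval −0.35 to −0.059, adjusted p = 0.268), or −0.11 after quantile normalization again. Otc, ornithine transcarbamylase, had −0.21 (SE 0.093, adjusted p = 0.513), and its groups overlapped through deleted 2 at 11.35 and control 1 at 11.21. Cps1, the synthase of carbamoyl phosphate that sets the entry of ammonia, averaged 12.88 ± 0.16 in the deleted group and 13.02 ± 0.0050 in the controls (SD, n = 4 each). Its 4 controls were within 0.01 of each other and the deleted values ran from 12.65 on array 4 to 13.01 on array 2. The log2 fold change of −0.14 was −0.040 after quantile normalization again. Nags, which makes the activator of Cps1, had 0.17, which was 0.089 without deleted 3 and 0.088 without control 1. Asl, the argininosuccinate lyase, had 0.11. The ornithine carrier Slc25a15 had −0.020 and the aspartate and glutamate carrier Slc25a13 −0.088.

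Among the 5 enzymes that move amino groups, 0 passed, and the median log2 fold change was −0.013. Gpt, the cytosolic alanine aminotransferase that passes the amino group of alanine to alpha-ketoglutarate, making glutamate, had 9.60, 9.68, 9.66 and 9.68 on deleted arrays and 9.37, 9.48, 9.33 and 9.47 on controls. The deleted values were tight and all higher, with a gap of 0.12 to the highest control. The log2 fold change was 0.24 (1.18-fold, SE 0.060, 95% interval 0.11 to 0.375, adjusted p = 0.126), and over all settings it stayed between 0.215 and 0.265. The mitochondrial form Gpt2 had −0.013 (95% interval −0.20 to 0.18). The aspartate aminotransferases Got1 and Got2 had −0.12 and −0.078. Got2 lay on 2 probe sets, whose values were −0.078 and −0.073. Glud1, glutamate dehydrogenase, which frees ammonia from glutamate in mitochondria, had 0.0025 (95% interval −0.15 to 0.15).

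**Figure D2:**
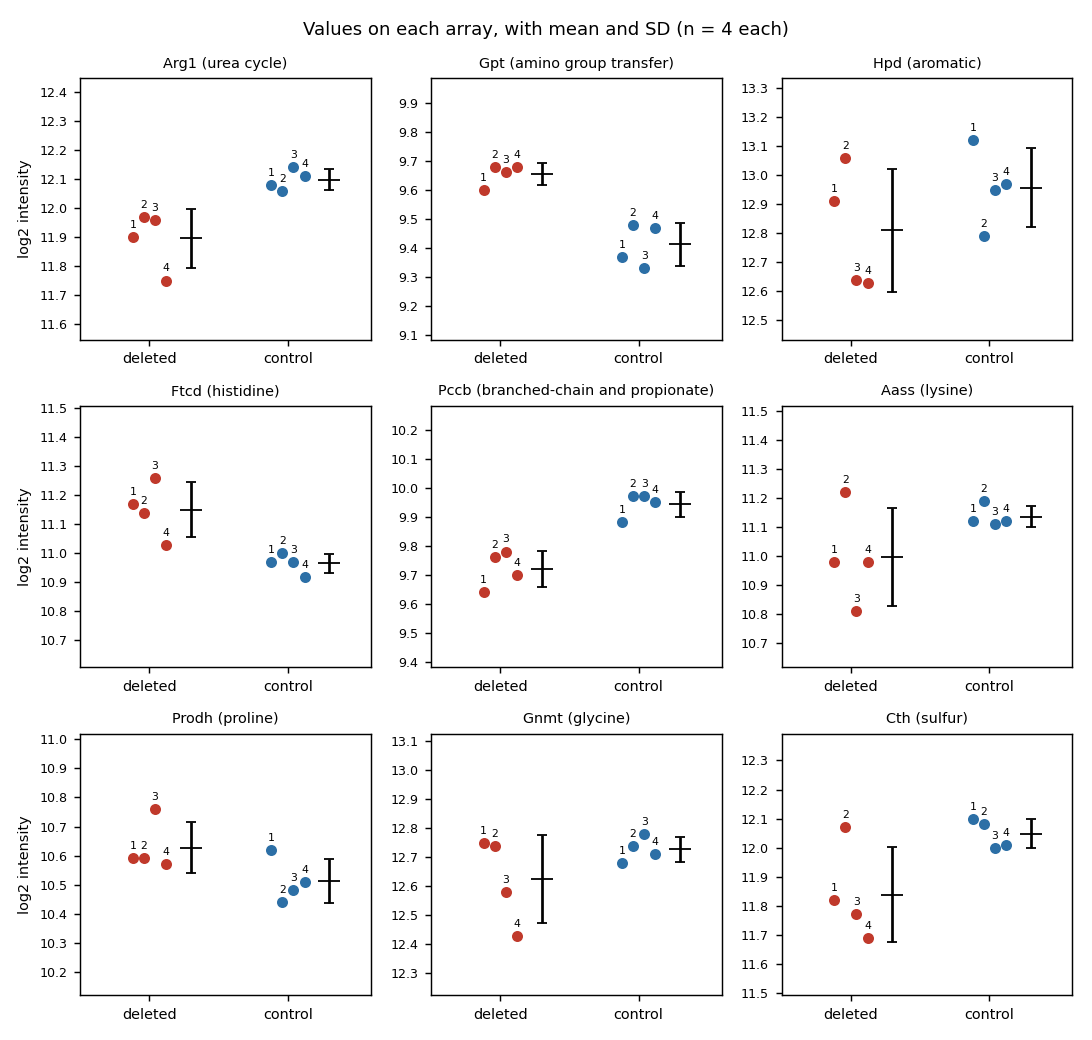
Log2 intensity (y axis, each panel 0.9 units tall) of the gene with the smallest p in each pathway, on the 4 deleted (red, left) and 4 floxed control arrays (blue, right), numbered by replicate, with mean and SD beside them. Arg1, Gpt, Ftcd and Pccb are separated by group, while in the other 5 panels the groups overlap.

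The tyrosine pathway had 0 of 4 genes past the threshold and a median log2 fold change of −0.025. Hpd, the dioxygenase of 4-hydroxyphenylpyruvate and the gene of smallest p here, had 12.91, 13.06, 12.64 and 12.63 in the deleted group and 13.12, 12.79, 12.95 and 12.97 in the controls. Deleted 3 and 4 lay below all controls and deleted 1 and 2 among them, so that the log2 fold change of −0.15 had an SE of 0.11 and an adjusted p of 0.831. Tat, the tyrosine aminotransferase induced by glucocorticoids, averaged 13.17 ± 0.19 in deleted livers and 13.16 ± 0.16 in controls (SD, n = 4 each). Hgd, homogentisate dioxygenase, had −0.028 and Fah, the hydrolase that ends the pathway, −0.023. Their controls had SDs of 0.022 and 0.029, against 0.13 in both genes on deleted arrays, and deleted 4 was the lowest of the 8 arrays for all 4 genes.

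Histidine breakdown also had 0 of 4 genes past the threshold, with a median of 0.053. Ftcd, the enzyme that ends the pathway and hands the formimino group to folate, had 11.17, 11.14, 11.26 and 11.03 on deleted arrays and 10.97, 11, 10.97 and 10.92 on controls. The groups did not overlap, although deleted 4 was only 0.03 above control 2. The log2 fold change was 0.185 (SE 0.064, 95% interval 0.045 to 0.325, adjusted p = 0.313). Hal, histidase, which opens the pathway, had 0.15 (SE 0.083, adjusted p = 0.685), with deleted 4 at 11.90 among controls of 11.85 to 11.98. The intermediate enzymes were on the other side of 0, urocanase (Uroc1) at −0.045 and the imidazolonepropionase Amdhd1 at −0.083, so the 4 steps did not share a direction.

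For branched-chain amino acids and propionate 0 of 8 genes passed, with 2 above 0, 5 below 0, 1 equal and a median of −0.045. Pccb, the beta subunit of propionyl-CoA carboxylase, had 9.64, 9.76, 9.78 and 9.70 in deleted livers and 9.88, 9.97, 9.97 and 9.95 in controls. All 4 deleted values were lower, with a gap of 0.10, for a log2 fold change of −0.22 (SE 0.059, 95% interval −0.35 to −0.093, adjusted p = 0.155). With arrays weighted by their quality Pccb fell by 0.22 and passed, with an adjusted p of 0.0397, the 1 setting in which any of the 39 genes did. Its partner Pcca, the alpha subunit, had 0.135 (95% interval −0.047 to 0.32), on the other side of 0, and 0.062 without control 1. Whether the 2 subunits differ from each other was not tested. Mut, the mutase that receives their product after epimerisation, had −0.048. The dehydrogenase complex of branched-chain ketoacids had −0.043 for Bckdha, 0 for Bckdhb and −0.11 for Dbt. In the leucine branch, Mccc1, a carboxylase subunit, had −0.19 (SE 0.090, adjusted p = 0.564) and Ivd, isovaleryl-CoA dehydrogenase, 0.11.

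Lysine was represented by Aass, the enzyme of its first steps, at 10.98, 11.22, 10.81 and 10.98 in deleted livers and 11.12, 11.19, 11.11 and 11.12 in controls. Deleted 2 was the highest of the 8 arrays and the other 3 deleted arrays the lowest, and the log2 fold change was −0.14 (SE 0.082, adjusted p = 0.738), or −0.21 without deleted 2 and −0.075 without deleted 3. Of the 3 proline genes 0 passed. Prodh, proline dehydrogenase, had 10.59, 10.59, 10.76 and 10.57 in deleted livers and 10.62, 10.44, 10.48 and 10.51 in controls. Control 1 alone lay among the deleted values, and the log2 fold change was 0.115 (SE 0.068, adjusted p = 0.731). The hydroxyproline enzyme Prodh2 had −0.115 and Aldh4a1, the next dehydrogenase of both routes, which makes glutamate in that of proline, 0.015.

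Of the 3 glycine genes 0 passed, and all 3 log2 fold changes were below 0. Gnmt, which uses glycine to take up surplus methyl groups, had 12.75, 12.74, 12.58 and 12.43 in deleted livers and 12.68, 12.74, 12.78 and 12.71 in controls. Only deleted 3 and 4 were below all controls, and the value was −0.10 (SE 0.078, adjusted p = 0.850), or −0.038 without deleted 4. The glycine cleavage genes Gldc and Amt had −0.0050 and −0.018, with 95% intervals of −0.15 to 0.14 and −0.22 to 0.18. In the sulfur pathway 0 of 4 genes passed, and the 4 values lay between −0.21 and −0.083, with a median of −0.098. Cth, the lyase that releases cysteine from cystathionine, had 11.82, 12.07, 11.77 and 11.69 in deleted livers and 12.10, 12.08, 12.00 and 12.01 in controls. Deleted 2 lay among the controls and the other 3 below them (log2 fold change −0.21, SE 0.082, adjusted p = 0.414). Cbs, which makes cystathionine, had −0.083, with −0.15 without deleted 3 and −0.033 without deleted 4. Mat1a, the liver synthetase of S-adenosylmethionine, had −0.10, and Bhmt, which returns homocysteine to methionine, −0.095. Bhmt lay on 3 probe sets, with −0.095 on the brightest and −0.065 and 0.020 on the others. Mat1a and Bhmt had values of 0.0033 and 0.0016 after quantile normalization again.

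The arrays differed in ways that touch these genes. Array medians lay between 6.08 and 6.18 in the deleted group and between 6.12 and 6.22 in the controls, correlations between arrays between 0.983 and 0.996, and 0 pairs of arrays were identical. The highest value of any probe set was 13.58 on deleted 4, against 14.23 to 14.46 on the other 7 arrays. Control 1 stood farthest out on the first principal component, at 36.15 against −22.44 to 21.09 for the others (33.05% of the variance over all probe sets). Hmgb1 itself had 4.91, 4.20, 4.53 and 4.74 in deleted livers and 5.35, 5.42, 5.45 and 5.78 in controls on a dim probe set, without overlap. Its log2 fold change was −0.905 (SE 0.14), past the threshold with an adjusted p of 0.0216, which 4 of the 8 fits that left out 1 array put above 0.05 (0.0687 and 0.0730 without deleted 4 and deleted 3, 0.0561 and 0.0797 without controls 3 and 4).

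Deleted 4 was the lowest of the 8 arrays for 15 of the 39 genes, more than any other array, deleted 1 following with 7. A tie was counted for the array listed first, so Amdhd1, at 10.65 on deleted 1 and deleted 4, was counted for deleted 1. The share went with the brightness of the probe set. Above a mean log2 intensity of 12, a limit set after the data were seen, deleted 4 was lowest for 11 of 11 of these genes (Tat, Bhmt, Cps1, Mat1a, Hpd, Gnmt, Got2, Fah, Hgd, Got1 and Glud1) and for 155 of 188 other genes (82.4%). Of the next 16 genes (Prodh at a mean of 10.57 to Hal at 12.0) it was lowest for 3, the tied Amdhd1 not counted, and for 28% of other genes in that range. Of the 12 dimmest (Mccc1 at 8.63 to Uroc1 at 10.41) it was lowest for 1, and for 22.4% of other dim genes. The distance of deleted 4 from the mean of the other 3 deleted arrays had a median of −0.26 for the 11 bright genes and −0.21 for other genes as bright, against 0.020 for the 12 dimmest and −0.037 for other dim genes. Bright genes outside these pathways thus carried a like offset. The median log2 fold change of the 11 bright genes was −0.095 with deleted 4 and −0.011 without it, and that of the 188 other bright genes −0.084 and −0.026. After quantile normalization again the 2 medians were 0.0033 and 0.024. Of the 4 genes whose groups separated, Gpt and Pccb were among the 12 dimmest, with offsets of 0.033 and −0.027, and Arg1 and Ftcd among the next 16, with −0.19 and −0.16.

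**Figure D3:**
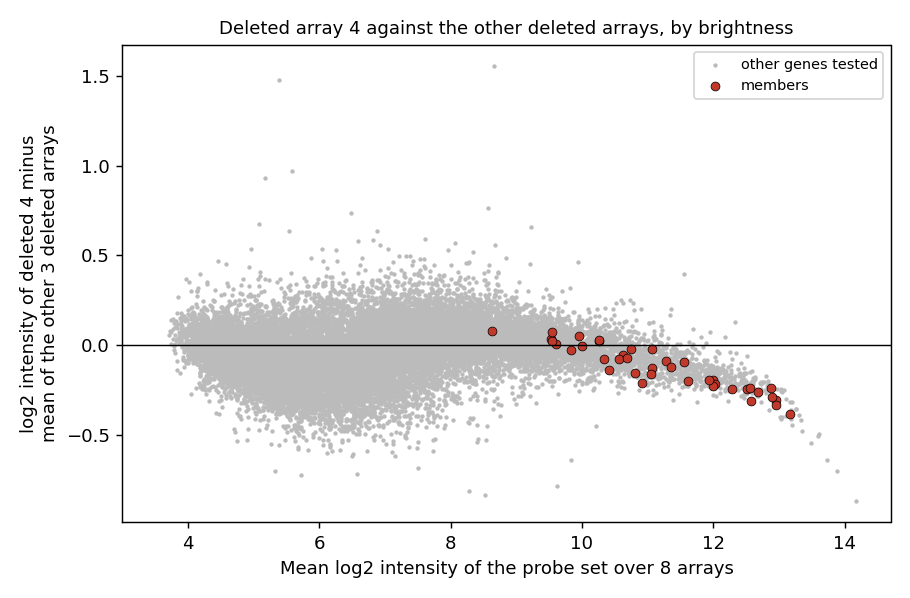
Log2 intensity of deleted array 4 minus the mean of the other 3 deleted arrays (y axis) against the mean log2 intensity of the probe set over 8 arrays (x axis), for the 39 genes (red) and the other 19899 genes tested (grey). The points bend down with brightness for both, to a median of −0.26 for the 11 red points above 12 and −0.21 for the 188 grey ones.

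By pathway, deleted 4 was the lowest of the 8 arrays for 6 of 9, farthest for the aromatic and sulfur genes. The mean of the aromatic genes was at −0.23 from each gene's own mean over the 8 arrays on deleted 4, against −0.015 to 0.12 on the other deleted arrays and −0.062 to 0.10 on controls. That of the sulfur genes was at −0.25, against −0.068 to 0.057 on the other deleted arrays and 0.017 to 0.14 on controls. For branched-chain and propionate genes, which were read on dimmer probe sets, deleted 1 was lowest, at −0.091, and deleted 4 had −0.032. Deleted 2 was the highest deleted array for 8 of the 9 pathways, and deleted 3 for amino group transfer, with 0.096. Over all 39 genes the array means were −0.049, 0.080, 0.011 and −0.12 in the deleted group, against 0.014, 0.0052, 0.015 and 0.039 in the controls. The deleted arrays thus lay on both sides of the controls.

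**Figure D4:**
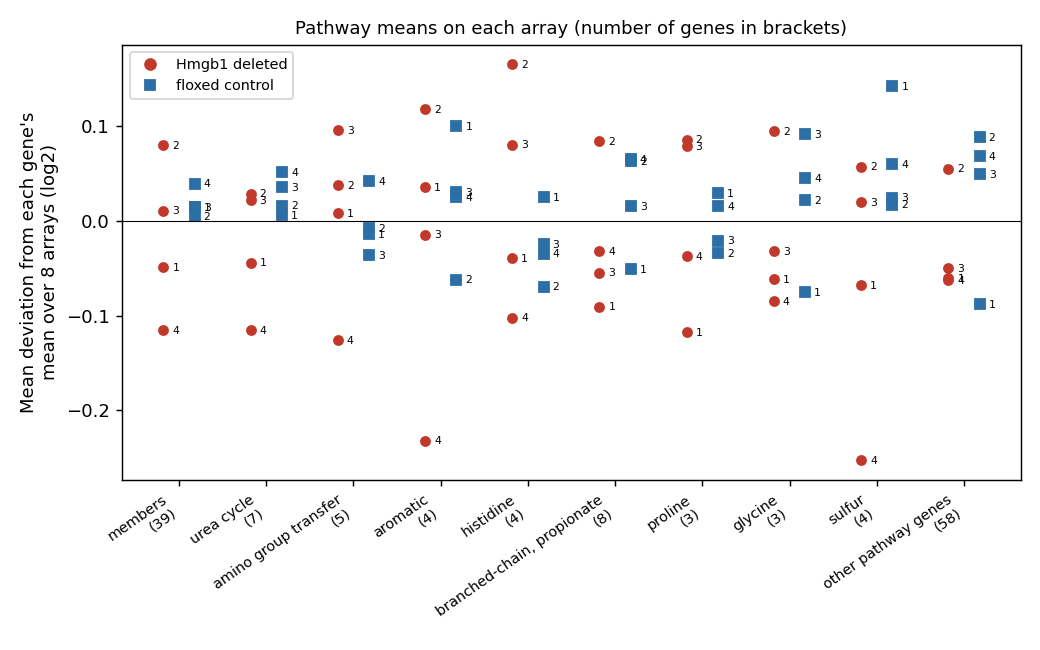
Mean deviation of each pathway's genes from their own mean over 8 arrays (y axis, log2) on deleted (red circles, left) and floxed control arrays (blue squares, right), numbered by replicate, with the number of genes under each name (x axis). Deleted 4 lies lowest in 6 pathways, farthest in the aromatic and sulfur ones at −0.23 and −0.25, and the groups overlap over all 39 genes.

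A further 65 genes of amino acid breakdown and transport of its intermediates were listed, of which 58 were measured. Of these 0 passed (limma), and 24 had log2 fold changes above 0, 33 below 0 and 1 equal, with a median of −0.043. Over all genes tested 49.8% were below 0 and 49% above. An unadjusted p under 0.05 was found for 11 of the 58, 1 above and 10 below 0, where 4.93% of all genes tested had one above and 4.53% below. Those with the smallest p were Bckdk, Kyat3 and Cdo1. Bckdk, the kinase that switches off the branched-chain ketoacid dehydrogenase, had 8.12, 8.18, 8.20 and 8.10 in deleted livers and 7.92, 7.79, 7.94 and 7.91 in controls. The groups were apart by 0.16, with a log2 fold change of 0.26 (SE 0.060, adjusted p = 0.0964), and it passed with weighted arrays (adjusted p = 0.0253). Kyat3, a kynurenine and glutamine aminotransferase, had −0.54 (SE 0.14, adjusted p = 0.161) with deleted 2 at 10.49 above control 1 at 10.34, and passed without control 1 (−0.66, adjusted p = 0.0247) and with weighted arrays (−0.58, adjusted p = 0.0206). Cdo1, which oxidises cysteine, had −0.28 (SE 0.077, adjusted p = 0.174).

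Of 18 regulators of these pathways, all measured, 0 passed, with 11 above and 7 below 0 and 1 with an unadjusted p under 0.05. That was Ppargc1a, a coactivator induced by fasting, with 7.37, 8.14, 7.70 and 7.79 in deleted livers and 9.14, 8.21, 8.27 and 8.65 in controls (log2 fold change −0.82, SE 0.21, adjusted p = 0.134). The groups were separated by 0.07, between deleted 2 and control 2. Ppargc1a lay on 2 probe sets, and these values are those of the brighter. Gcgr, the glucagon receptor, had 0.13 (adjusted p = 0.582) and Sirt3, a mitochondrial deacetylase, −0.095 (adjusted p = 0.804).

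Because urea synthesis is zoned, markers of both zones were read. Of 10 periportal markers 0 passed (limma), with 4 above and 6 below 0 and a median of −0.071. Unadjusted p-values were under 0.05 for 5 of the 10, 3 above and 2 below 0. Over all genes tested 4.93% had such a p above 0 and 4.53% below. The groups did not overlap for 3 of the 10, all higher in deleted livers. Over all genes tested 3.28% were higher without overlap and 2.3% lower. Pigr, the polymeric immunoglobulin receptor, had 0.37 (adjusted p = 0.0557, and 0.0103 after quantile normalization again), the ethanolamine phosphate lyase Etnppl −0.74 (adjusted p = 0.126) and Pck1, the gluconeogenic carboxykinase, −0.22 (adjusted p = 0.429). Of these named genes only Pigr had groups without overlap. Of 11 pericentral markers 0 passed, with 2 above and 9 below 0 and a median of −0.185. Unadjusted p-values were under 0.05 for 7 of the 11, 2 above and 5 below 0. The groups did not overlap for 2 higher and 2 lower ones, against 3.28% and 2.3% of all genes tested. Cyp1a2 had the smallest p, at −0.29 (adjusted p = 0.111). Next came the only 2 above 0, the ammonium transporter Rhbg at 0.35 (adjusted p = 0.118) and the R-spondin receptor Lgr5 at 0.31 (adjusted p = 0.147). The mean log2 level of the periportal list ran from 11.12 to 11.36 in deleted livers and from 11.23 to 11.31 in controls. That of the pericentral list ran from 10.19 to 10.30 in deleted livers and from 10.34 to 10.38 in controls, without overlap.

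All 17 hepatocyte markers were below 0 (median −0.12) with 0 past the threshold. Among the 188 genes outside the 39 with a mean log2 intensity above 12, some of these markers included, 83.5% were below 0, with a median of −0.084. From each marker's own mean over the 8 arrays the 17 hepatocyte markers averaged −0.017, 0.079, −0.017 and −0.30 on deleted arrays 1 to 4, against 0.020 to 0.093 on controls. Deleted 4 was farthest below, and deleted 1 and 3 were also under all controls. Their mean level ran from 12.54 on deleted 4 to 12.92 in deleted livers, and from 12.86 to 12.93 in controls. For sinusoidal endothelial markers 8 of 8 were below 0 and 1 passed, Clec4g, a lectin of these cells, which fell by 0.615 (adjusted p = 0.00628, but −0.265 and 0.121 with the mean of its probe sets). Over all genes tested 49.8% were below 0 and 0.692% passed. Unadjusted p-values (limma) were under 0.05 for 6 of the 8 endothelial markers, and the groups did not overlap for 3, all lower. Over all genes tested 4.53% had such a p below 0, and 2.3% were lower without overlap. Mean levels of the 8 were 9.19 to 9.29 in deleted livers and 9.46 to 9.59 in controls. Of 5 erythroid markers 4 were below 0, with means of 7.25 to 7.36 in deleted livers and 7.51 to 7.75 in controls. An unadjusted p under 0.05 (limma) and groups without overlap were found for 3 of the 5, all lower. Kupffer cell markers had 8.49 to 8.60 in deleted livers and 8.46 to 8.61 in controls, stellate cell markers 8.19 to 8.29 in deleted livers and 8.19 to 8.31 in controls, and the 5 measured cholangiocyte markers 5.87 to 6.12 in deleted livers and 6.11 to 6.17 in controls. The part of these cell types in the values of the 39 genes was not tested.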

How the data were processed

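The log2 values were made by the authors with RMA before they were deposited, per the submitters' processing notes. RMA corrects the background, normalizes across arrays and gives 1 summary per probe set. The sources used here give no RMA version and no genome build. The values have 2 decimals and a range that fits log2 intensity. GEO's annotation gives 1 gene symbol to 21789 of 35556 probe sets, several to 1621 and none to 12146. Each of 19938 genes was read on its single-symbol probe set with the highest mean over 8 arrays. No filter on dim values was set. A 2-sided limma fit (lmFit, eBayes, no covariate, limma 3.58.1 under R 4.3.3) compared the groups, Benjamini-Hochberg adjusted over all genes at a threshold of 0.05. Intervals are those of the moderated fit. Python 3.11.15 with matplotlib 3.10.9 drew the figures. The scripts were tested on simulated data.

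The 44 genes and all lists were chosen with earlier results of these data known. Of the 39 measured, values on every array are given for those whose groups do not overlap and for the gene of smallest p in each pathway. For the further pathway genes, the regulators and both zone lists, the 3 genes of smallest p or those past the threshold are named. Hmgb1 checks the labels. The rule for promoters took the gene of largest change among those whose groups do not overlap, Gpt, and the listed promoters of the other such genes are shown in its place. Alternatives changed the filter, the probe set rule, the scaling, the prior variance, the weight of each array, the arrays included and whether the replicate number was a block. Arrays give no read counts, and their number limits the precision.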

Additional observations from a re-analysis of the deposited data

Results flagged for a closer look

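A value was singled out where 1 of 4 arrays of a group lay apart from the other 3 by a share of the group's whole range above Dixon's critical value at 95%. Over the 136 groups of 4 values tested this picked 11 values, where chance gives about 1 in 20, or 6.8. Among the 39 genes 8 of 78 groups were picked, with 3.9 given by chance.

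Tat had 12.88 on deleted 4, against 13.26 to 13.28 on the other deleted arrays, the widest of these gaps among the 39 genes. Dbt had 10.77 on deleted 2 (10.49 to 10.53 on the others) and Prodh 10.76 on deleted 3 (10.57 to 10.59). On control 1, Nags had 9.27 (9.57 to 9.62 on the other controls), Got2 12.49 (12.64 to 12.66) and Amt 9.33 (9.62 to 9.63). On control 2, Aass had 11.19 (11.11 to 11.12) and Cps1 13.01, which is 0.01 under the other 3 controls and no more than the rounding of the values. Among other genes, Itih2 had 12.29 on control 1 (12.38 to 12.39 on the others), Epcam 5.38 on control 2 (5.08 to 5.12) and Rgs5 7.76 on deleted 1 (7.98 to 8.01).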

How the results depend on the processing

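The count of the 39 genes past the threshold was 0 in every setting run but array weights, where it was 1 (Pccb). The further pathway genes had 0, except 2 (Bckdk and Kyat3) with array weights and 0 to 1 with single arrays left out (Kyat3 without control 1). All genes past the threshold numbered 138 as reported, 264 after quantile normalization again, 61 with arrays centred on their medians, 526 with array weights, 223 without both deleted 4 and control 1, and 37 to 321 with single arrays left out. With the replicate number of the titles as a block 325 genes passed and 0 of the 39, and of the other named genes Alas2, Car1, Etnppl, Lgr5 and Pigr gained a call there. Nothing in the labels says that the numbers pair arrays, so the reported fit did not take them as pairs. Same-numbered arrays had correlations of 0.42, 0.052, −0.13 and 0.29 in their deviations, and 2 of 4 deleted arrays matched their own number best. With 4 arrays in each group these values cannot settle whether the numbers are pairs. Whether the numbers stand for a litter or day was not tested. Hmgb1 had −0.905 with an adjusted p of 0.0652 over all probe sets, and −1.01 to −0.77 with single arrays left out, where the call was lost without deleted 3, deleted 4, control 3 or control 4 (0.0561 to 0.0797). The filter on dim genes removed it. The cause of these changes was not tested.

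Of 684 values under the alternatives of the 38 genes with a log2 fold change other than 0, 631 kept direction and call, 52 changed sign and 1 gained a call. The 15 genes that changed sign all had log2 fold changes between −0.12 and 0.015 as reported. With single arrays left out, the ranges were −0.033 to 0.068 for Aldh4a1, −0.092 to 0.044 for Amt, −0.059 to 0.038 for Fah, −0.041 to 0.023 for Gldc, −0.023 to 0.057 for Glud1, −0.088 to 0.033 for Gpt2, −0.066 to 0.034 for Hgd, −0.074 to 0.056 for Slc25a15, −0.057 to 0.11 for Tat and −0.085 to 0.0083 for Uroc1. After quantile normalization again the changed values were Bhmt at 0.0016, Fah 0.060, Gldc 0.031, Gnmt 0.0023, Got2 0.011, Gpt2 0.044, Hgd 0.066, Mat1a 0.0033 and Slc25a15 0.052. With arrays centred on their medians they were Amt at 0.0025, Gldc 0.015 and Gpt2 0.0075. With array weights they were Gldc at 0.012, Glud1 −0.0012, Slc25a15 0.051 and Uroc1 0.021. Without both deleted 4 and control 1 they were Bhmt at 0.027, Fah 0.027, Gldc 0.0067, Got1 0.0067, Gpt2 0.010, Hgd 0.027, Slc25a15 0.087 and Uroc1 0.043.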

Other observations

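Asns, which makes asparagine and is induced when amino acids run short, had the lowest log2 fold change among the further genes of amino acid metabolism and was picked out after its values were seen. It had 6.61, 6.03, 6.20 and 6.45 in deleted livers and 6.71, 8.92, 6.65 and 7.72 in controls. The groups did not overlap, but only 0.04 lay between deleted 1 and control 3, and controls 2 and 4 were far above controls 1 and 3. The log2 fold change was −1.18 (SE 0.41, 95% interval −2.09 to −0.27, adjusted p = 0.326). Kyat1, the relative of Kyat3, was also picked out after its values were seen and had −0.335 (SE 0.10, adjusted p = 0.233), with 9.70, 10.03, 9.63 and 9.86 in deleted livers and 9.92, 10.20, 10.28 and 10.16 in controls.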
